A study of Mus musculus with 2 samples.

Results

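The cells described here are the endothelial cells in a single-cell library of the esophagus of p63-KO mouse embryos: 63 of the 2422 cells that passed the quality filter in that library, and of 8209 passing cells in the whole series. They were chosen by their RNA. A p63-KO cell with at least 500 genes, at least 1000 UMIs (unique molecular identifiers, each marking 1 captured transcript) and at most 10% mitochondrial UMIs was a member if Pecam1, Cdh5 and Kdr together reached at least 4 UMIs per 10000 UMIs of the cell (CP10K), Epcam and Cdh1 together stayed under 1, and Ptprc stayed under 1. They are compared with the 587 other p63-KO cells whose Epcam and Cdh1 sum was also under 1, called the other non-epithelial cells.

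The series holds 1 library labelled wild type (genotype p63-CreER) and 1 labelled p63-KO (genotype p63-CreER/p63-CreER), both from C57BL/6 embryos at E18.5, near term. The embryos carry the CreER allele at p63 in both groups, and the labels name no treatment that activates Cre and no number of embryos. Trp63 encodes p63, a transcription factor of basal cells in stratified epithelia. The labels give the cell type as epithelium: the muscle layer was pulled away with forceps, and dispase and trypsin were used to release the cells. Endothelial cells are therefore not the labelled target of the preparation, and how much of the vessel bed each preparation kept was not tested. With 1 library per group there is no replicate check, and no p-value is given.

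Endothelial cells line blood and lymphatic vessels. They are held together by VE-cadherin, grow in response to VEGF through the receptors KDR and FLT1, and differ along the vessel bed: arterial cells use Notch signalling and connexins, venous cells store von Willebrand factor and P-selectin for release, and capillary cells exchange gases, water and lipids with the tissue. In lipid-using tissues the capillary wall carries GPIHBP1, which holds lipoprotein lipase, and takes up fatty acids through CD36 and FABP4.

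The members made up 2.60% of passing p63-KO cells (exact 95% interval 2.0 to 3.32) and 9.69% (7.53 to 12.2) of the 650 non-epithelial ones. Intervals throughout cover counting error only. In the wild-type library 1 of 5787 passing cells met the same rule (0.0173%, 0.000437 to 0.0962), so the members' expression could not be compared with that of wild-type endothelial cells. Muscle and epithelium were pulled apart manually, and that step and the genotype cannot be told apart as sources of the difference in share. The single wild-type cell had 5281 UMIs, with 5 of Pecam1, 3 of Cdh5 and 4 of Kdr. It held 25 UMIs of Lyve1 and 3 of Prox1, genes used to mark lymphatic vessels, and 0 of Fabp4, Aplnr and Emcn, which were abundant in the p63-KO members. It is 1 cell, and is given as a value only.

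The values that chose the members are given as a description. All 3 rule genes had UMIs in 58 of the 63 members, and at least 2 in 60. The marker sum ran from 9.13 CP10K through a median of 28.5 to 76.6. The members with the lowest sums, at 9.13, 9.43 and 9.88 CP10K, were cells of 1095, 1061 and 1012 UMIs with 1 marker UMI each, and the nearest cells outside lay at 3.96 and 2.14 CP10K, also with 1 marker UMI each. No cell lay between 3.96 and 9.13. The Epcam and Cdh1 condition left out 11 further cells that reached the marker sum, 6 of them through 1 UMI, and 10 of those 11 had a Fabp4 UMI. Those 11 are counted among the 1772 epithelial cells, so low values of endothelial genes in that class include them.

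**Figure D1:**
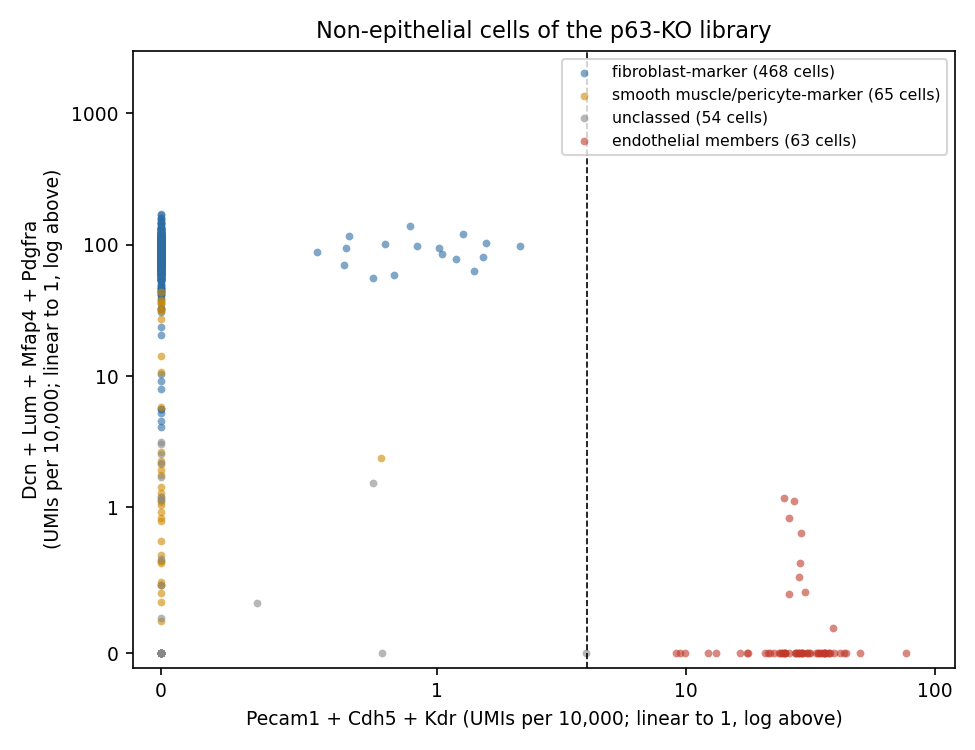
Each point is 1 of the 650 non-epithelial p63-KO cells, by its summed Pecam1, Cdh5 and Kdr (horizontal) and its summed Dcn, Lum, Mfap4 and Pdgfra (vertical), both in UMIs per 10000 with axes that are linear to 1 and logarithmic above; the dashed line marks the threshold of 4. The horizontal axis is the measure that chose the members, which lie at 9.13 or above; on the vertical axis, which the rule did not use, no member reaches 4.

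The members held 998920 UMIs in all, from 1012 to 65461 a cell with a median of 11585 and a median of 4021 genes, against medians of 11323 UMIs in the other non-epithelial cells, 11109.5 in the fibroblast-marker cells and 25057 in the epithelial cells. Of the other non-epithelial cells, 468 carried fibroblast markers, 65 carried smooth muscle and pericyte markers, and 54 fell in neither class. A simulated-doublet score took the 47 highest-scoring cells of the library, a number fixed beforehand by an assumed rate of 0.8% per 1000 cells. All of them were epithelial by the rule and 0 were members, which does not show that the members hold no doublets. In both libraries 8 barcodes occurred, none of them a member's. Xist RNA without Y-linked RNA was found in 58 members, Y-linked RNA alone in 0, both in 1 and neither in 4. Among the epithelial cells of the same library 54.9% had Xist alone and 22.1% had Y-linked RNA alone, while the fibroblast-marker cells (441 of 468 with Xist alone) were closer to the members. The members therefore carry almost no sign of cells from embryos with a Y chromosome. With all sets limited to cells with Xist RNA alone, the gene and list counts below stayed within 1.5 times the reported ones. No called named gene changed the sign of its log2 ratio there. Whether sex touches the patterns among the members was not tested.

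Markers of other cell types were low in the members. The 12 fibroblast markers summed to 83.1 CPM (UMIs per 1000000 UMIs of the summed cells) against 37460 in the other non-epithelial cells, with 4 of the 12 at 0. The 12 smooth muscle and pericyte markers summed to 89.1 against 8563 CPM with 3 at 0, the 12 immune markers to 11 against 542 CPM with 7 at 0, and the 12 epithelial markers to 154 against 232 CPM with none at 0. Krt15, a keratin of basal epithelial cells, had a UMI in 52.4% of members and in 48.3% of fibroblast-marker cells; after thinning, in which 2000 UMIs were drawn from each cell and shallower cells (4 of the members) were left out, the shares were 11.9% and 12.9%, against 75.5% of epithelial cells. The thinned shares of members and fibroblast-marker cells were thus close, and the source of the Krt15 UMIs was not tested. Red blood cell genes summed to 3981 CPM, but 3879 of their 3977 UMIs lay in 1 member; without it the sum was 101 CPM. Trp63 itself had 1 UMI in the members (1.0 CPM) against 117 CPM in the epithelial cells, and whether the counted 3' end lies in the targeted part of the gene is not given in the labels.

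Of 8498 genes with at least 20 CPM in the members or the other non-epithelial cells, 1296 (15.3%) were at least 2-fold higher in the members and 1516 (17.8%) at least 2-fold lower, taken on log2 of CPM with 1 added. The median log2 ratio of all measured genes was 0.09. These shares are the background for every gene list below. The lists, like the cells, were chosen on knowledge of this cell type and of earlier results, so their counts describe the members and are not independent evidence of what they are. Rule genes were not taken out of the lists. Where a list holds Pecam1, Cdh5 or Kdr, that gene counts as higher through the choice of the cells.

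**Figure D2:**
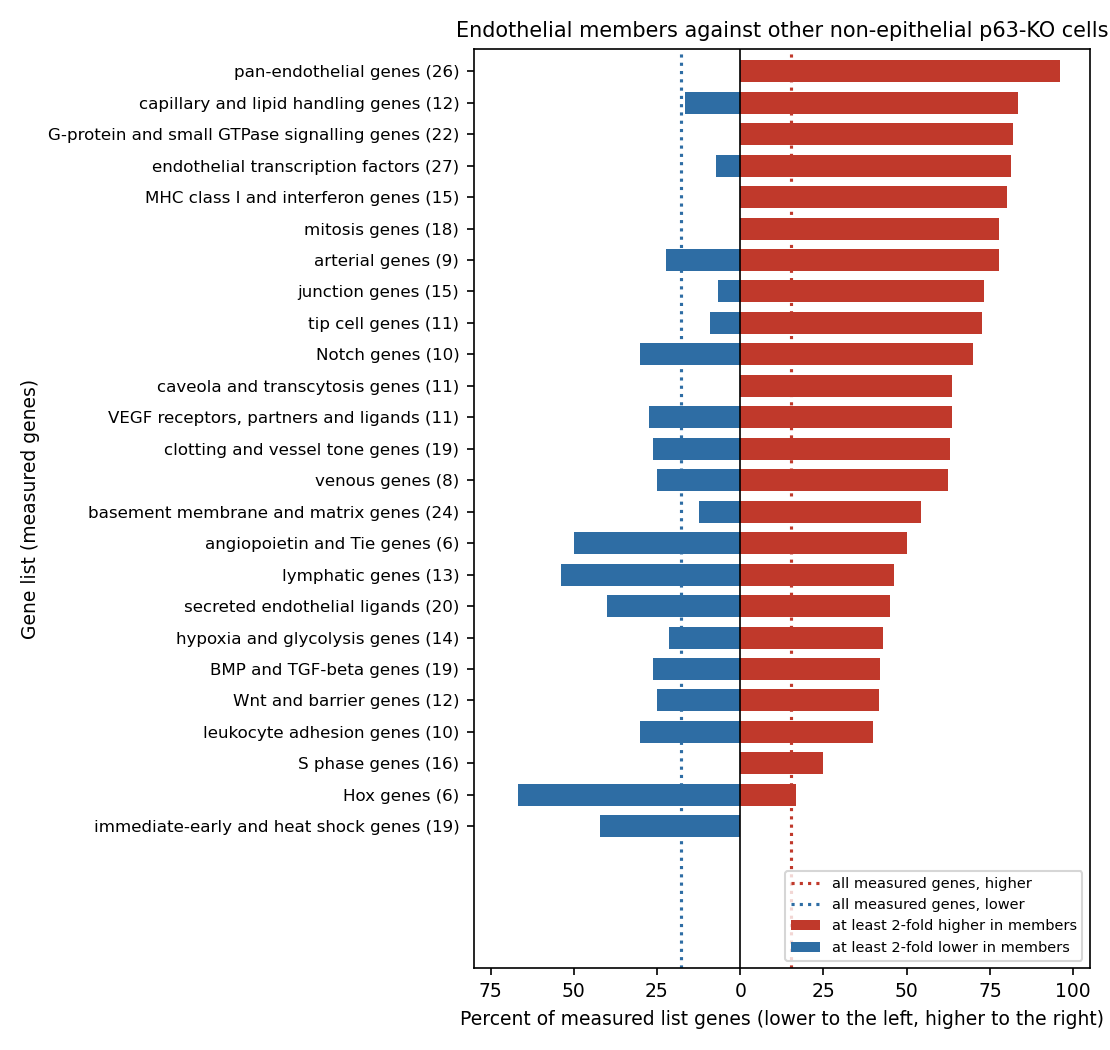
Bars give, for each gene list, the percent of its measured genes (number in brackets) that were at least 2-fold higher (right) or lower (left) in the 63 members than in the 587 other non-epithelial cells; dotted lines mark the shares over all measured genes, 15.3% and 17.8%. Pan-endothelial genes stand at the top with 25 of 26 higher, and the immediate-early and heat shock genes at the bottom with 0 of 19 higher.

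The highest ratios belonged to genes of several kinds, from receptors and surface proteins to a lipid carrier and signalling proteins inside the cell. Besides the rule genes, the 20 highest were Gpihbp1, Aplnr (the apelin receptor), Cyyr1, Ctla2a, Flt1, Ptprb (the VE-PTP phosphatase, which acts on TEK and VE-cadherin), Fabp4, Emcn (endomucin), Adgrl4, Cldn5, Myct1, Ablim3, Zfp366, Icam2, Plvap, Rasip1 and Rasgrp3. Ctla2a has a near-identical neighbour, so its value is uncertain. Aplnr was at 614 CPM in the members with 0 UMIs among the other non-epithelial cells, at least 1447-fold higher against a floor of 3 UMIs over the set. Adgrl4 stood at 297 CPM against 0 UMIs, at least 701-fold higher. Gpihbp1 had 752 UMIs in the members and 1 in the other non-epithelial cells, a ratio of 5325 between the CPM values (interval 953 to 210615). Flt1 was 466-fold higher (310 to 738) at 1517 CPM, Emcn 485-fold (293 to 870) at 1029 CPM, and Cyyr1 974-fold (416 to 3011) at 689 CPM.

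Of these genes, detection ran from 73.0% of members for Ablim3 to 96.8% for Gpihbp1 and Emcn. In CP10K, Emcn ran from 0 through a median of 9.45 to 26.6 with UMIs in 61 members, Gpihbp1 from 0 through 8.09 to 45.1 in 61, and Aplnr from 0 through 5.78 to 18.3 in 60. Flt1 ran from 0 through 11.6 to 44.7, with UMIs in 60. After thinning to 2000 UMIs, Aplnr was found in 72.9% of members and in 0 of 457 fibroblast-marker and 0 of 65 smooth muscle and pericyte-marker cells, whose exact upper limits are 0.804% and 5.52%. Epithelial cells had it in 0.456%. In the GENCODE M21 annotation of build mm10, the genes lie as follows: Aplnr at chr2:85136225-85139923 on the plus strand, Gpihbp1 at chr15:75596628-75599481 on the plus strand, Fabp4 at chr3:10204088-10208576 on the minus strand, and Emcn at chr3:137341067-137432185 on the plus strand.

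The promoters of 3 of these genes are shown because ETS factors, of which Fli1, Erg, Ets1, Ets2 and Elk3 were all higher in the members, bind a core of GGAA. The windows are RefSeq sequences of build GRCm38.p6, 250 bases before to 50 after the gene start, read 5′ to 3′ on the gene's strand, with every AGGAAG or CGGAAG on either strand in capitals. The Cyyr1 window is chr16:85550324-85550623 on the minus strand; it follows the RefSeq start and lies inside the GENCODE M21 gene span, which reaches to 85553397. The others are Flt1 at chr5:147725962-147726261 on the minus strand, and Emcn at chr3:137340828-137341127 on the plus strand.
Cyyr1: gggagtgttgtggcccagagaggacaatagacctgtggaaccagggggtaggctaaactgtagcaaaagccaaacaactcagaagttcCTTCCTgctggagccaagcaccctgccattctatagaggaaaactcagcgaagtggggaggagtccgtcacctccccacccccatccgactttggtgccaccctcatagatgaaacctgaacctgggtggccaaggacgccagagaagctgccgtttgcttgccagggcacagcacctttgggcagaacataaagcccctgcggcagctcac
Flt1: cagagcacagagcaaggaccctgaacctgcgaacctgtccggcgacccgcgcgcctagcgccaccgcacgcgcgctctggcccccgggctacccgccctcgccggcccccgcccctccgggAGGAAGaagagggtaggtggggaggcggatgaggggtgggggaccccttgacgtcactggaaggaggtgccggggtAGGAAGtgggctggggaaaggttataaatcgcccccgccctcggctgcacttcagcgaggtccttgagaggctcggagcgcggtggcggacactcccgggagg
Emcn: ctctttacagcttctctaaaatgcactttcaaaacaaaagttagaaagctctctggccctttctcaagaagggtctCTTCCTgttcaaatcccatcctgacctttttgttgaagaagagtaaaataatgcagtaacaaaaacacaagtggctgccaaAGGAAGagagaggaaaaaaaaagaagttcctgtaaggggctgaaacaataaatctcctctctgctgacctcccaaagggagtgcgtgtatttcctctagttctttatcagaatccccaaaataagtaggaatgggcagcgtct
The Cyyr1 window held 1 match, and the Flt1 and Emcn windows 2 each. Of the 20 genes with the highest ratios, 10 had a promoter in the table, and 8 of those 10 had a promoter with a match. The 3 shown are all among those with a match. Counted by promoter, 9 of 12 (75%) held a match, against 15265 of all 32851 promoters (46.5%). No test was run on these counts. The 20 genes were picked by their ratio and include the rule genes, and the 12 promoters come from 10 genes. The 32851 promoters were not limited to genes measured here. A match of letters is a description of the sequence and does not show binding.

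The 10 lowest ratios held matrix genes (Lum, Vcan, Col14a1, Col1a1, Col1a2 and Col3a1) and also Lpar1, Lsamp, Il1rapl1 and Grm7, of which Grm7 encodes a glutamate receptor. Lum (lumican, a matrix proteoglycan) had 0 UMIs in the members and 1166 CPM in the other non-epithelial cells, at least 388-fold lower. Vcan, Col14a1, Lpar1, Lsamp and Il1rapl1 were also at 0 against 600, 484, 638, 684 and 811 CPM. The fibrillar collagens were low but not at 0: Col1a1 was 780-fold lower (447 to 1510) at 12 against 9372 CPM, and Col3a1 530-fold lower (356 to 827) at 24.0 against 12726 CPM. Col3a1 had a UMI in 20 members, with a highest value of 3.01 CP10K. Grm7 had 1 UMI in the members and 6606 in the other non-epithelial cells.

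Pan-endothelial genes were almost uniformly higher: 25 of 26 by at least 2-fold, with a median log2 ratio of 6.53, or 7.47 with genes at 0 set to the floor. They include Tie1 at 127 CPM against 0, Egfl7 at 683 against 3.96, Cd93 at 596 against 3.25 and Esam at 595 against 6.22 CPM. The exception was Cd34, a sialomucin that fibroblasts also carry, at 524 against 332 CPM. The same 25 were at least 2-fold above each of the fibroblast-marker, smooth muscle and pericyte-marker and epithelial classes, where 7.6% of 9640 measured genes were. Taken class by class over all measured genes, 18% were higher and 17.1% lower in the members than in fibroblast-marker cells, 17.7% and 17.2% against smooth muscle and pericyte-marker cells, and 20.6% and 19.7% against epithelial cells.

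The transcription factors of the endothelial state followed. Of 27 measured, 22 were higher by the 2-fold criterion and 2 were lower. Their median log2 ratio was 3.68, or 3.86 at the floor. Fli1 stood at 1244 against 28.1 CPM, 44.2-fold higher (38.1 to 51.6), and Erg at 195 against 1.84 CPM. All 3 SOXF genes, which act in arterial and lymphatic specification, had few or no UMIs in the other non-epithelial cells: Sox7 at 118 CPM and Sox17 at 98.1 CPM against 0 UMIs, and Sox18 at 134 CPM against 2 UMIs. Meox1 and Tcf15, mesodermal factors, had 128 and 164 CPM against 1 and 5 UMIs; Tcf15 pairs with MEOX2 in capillaries that take up fatty acids, and Meox2 was at 207 against 35.6 CPM. Mecom was 76.7-fold higher (61.2 to 97.2) than in the other non-epithelial cells, at 900 CPM, but was not particular to the members. After thinning, it was found in 64.4% of members and 66.0% of epithelial cells, against 1.75% of fibroblast-marker cells. Klf4 was lower than in the other non-epithelial cells, at 82.1 against 548 CPM. So was Foxf1, a factor of gut mesenchyme, at 5.01 against 106 CPM. Etv2, which starts the endothelial lineage in the early embryo, had 0 UMIs in the members and in each of the other 3 classes.

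Receptors for VEGF were concentrated in the members and the ligands outside them. The receptor gene Kdr helped to choose the members, so its level is no finding. In the list of receptors, partners and ligands 7 of 11 measured genes were higher and 3 lower. Flt4, the receptor for VEGF-C, was at 75.1 CPM against 0.28, the co-receptors Nrp1 and Nrp2 at 772 against 330 and 539 against 106 CPM, and Plxnd1, a semaphorin receptor, at 319 against 11.6 CPM. The 3 that were lower are the ligands Vegfa, Vegfc and Vegfd. Vegfa was at 14 CPM in the members, 40.0 in fibroblast-marker cells, 17.0 in smooth muscle and pericyte-marker cells and 37.6 in epithelial cells. Vegfc was at 33.0, 167, 25.9 and 4.69 CPM in the same order, and Vegfd at 0, 120, 13.8 and 3.38 CPM. Vegfc and Vegfd were thus highest in the fibroblast-marker class, while Vegfa was about as high there as in the epithelial cells. For Vegfc the direction depended on the class: against the smooth muscle and pericyte-marker cells alone its log2 ratio was 0.34, on the members' side.

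The angiopoietin and Tie list was mixed, with 3 of 6 measured genes higher and 3 lower. Tek, the angiopoietin receptor, was at 325 CPM in the members, 122 in fibroblast-marker cells, 15.4 in smooth muscle and pericyte-marker cells and 2.61 in epithelial cells. Its partner Tie1 was at 127 CPM in the members and 0 in both non-epithelial classes. Angpt1, the ligand that activates TEK, had 0 UMIs in the members against 424, 131 and 17.4 CPM, at least 114-fold lower than in the other non-epithelial cells. Angpt2, the ligand that endothelial cells themselves release, had 24 UMIs in the members and was 4.05-fold higher (2.34 to 6.84) than in the other non-epithelial cells. After thinning it was found in 3.39% of members, 0.875% of fibroblast-marker cells and 4.62% of smooth muscle and pericyte-marker cells. Tek UMIs were found in 54 members, with a median of 2.75 and a highest value of 9.56 CP10K.

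Notch and its ligands showed a division between receptors. Notch1 and Notch4 were higher in the members, at 164 against 22.5 and 52.1 against 2.69 CPM, while Notch2 was lower at 8.01 against 42.4 CPM. Notch3, the receptor of mural cells, had 0 UMIs in the members and 193 CPM in the smooth muscle and pericyte-marker cells, a class for which Notch3 was 1 of the defining genes. The ligand Dll4 was 103-fold higher (42.3 to 328) at 73.1 CPM, with UMIs in 32 members, and Jag2 was at 39.0 against 0.99 CPM. The Notch target Nrarp was 33.6-fold higher (22.3 to 52.5). In all, 7 of 10 measured Notch genes were higher and 3 lower, the third being Rbpj.

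Of the secreted factors, Pdgfb, which recruits pericytes, was at 169 CPM in the members against 0.75, 3.24 and 9.64 CPM in the fibroblast, smooth muscle and pericyte, and epithelial classes. Its receptor Pdgfrb was at 1.0 CPM in the members, 61.5 in the fibroblast-marker cells and 150 in the smooth muscle and pericyte-marker cells. Kitl, the KIT ligand, was at 428 CPM against 28.3, 204 and 97.7, and its receptor Kit at 48.1 against 1.32, 3.24 and 33.7 CPM. Igf2 was higher in the members at 412 against 102 CPM and Igf1 lower at 58.1 against 986 CPM. Apln, the ligand of the abundant APLNR and a gene of sprouting tip cells, was at 83.1 CPM with UMIs in 27 members. Cxcl12 had 28 UMIs, all in 3 members. The list as a whole was mixed, with 9 of 20 measured ligands higher and 8 lower.

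Most measured genes of capillary lipid handling were higher. Of 12, 10 were higher and 2 lower, and the median log2 ratio was 5.64 (5.80 at the floor). Fabp4 was at 5666 CPM in the members against 1.32 in fibroblast-marker cells, 21 in smooth muscle and pericyte-marker cells and 11 in epithelial cells. It ran from 0 through a median of 53.2 to 155 CP10K, with UMIs in 56 members, and after thinning was found in 83.1% of them against 0.219% of fibroblast-marker cells. Cd36 was 107-fold higher (78.2 to 149) at 648 CPM, Rgcc 98.8-fold (73.0 to 137) at 629 CPM and Aqp1, a water channel, 84.8-fold (63.1 to 116) at 576 CPM. Scarb1, the HDL receptor, was at 413 against 11.3 CPM. Fabp5 was 5.58-fold higher (5.03 to 6.19). The enzyme that GPIHBP1 binds, Lpl, was lower in the members at 5.01 against 26.9 CPM.

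**Figure D3:**
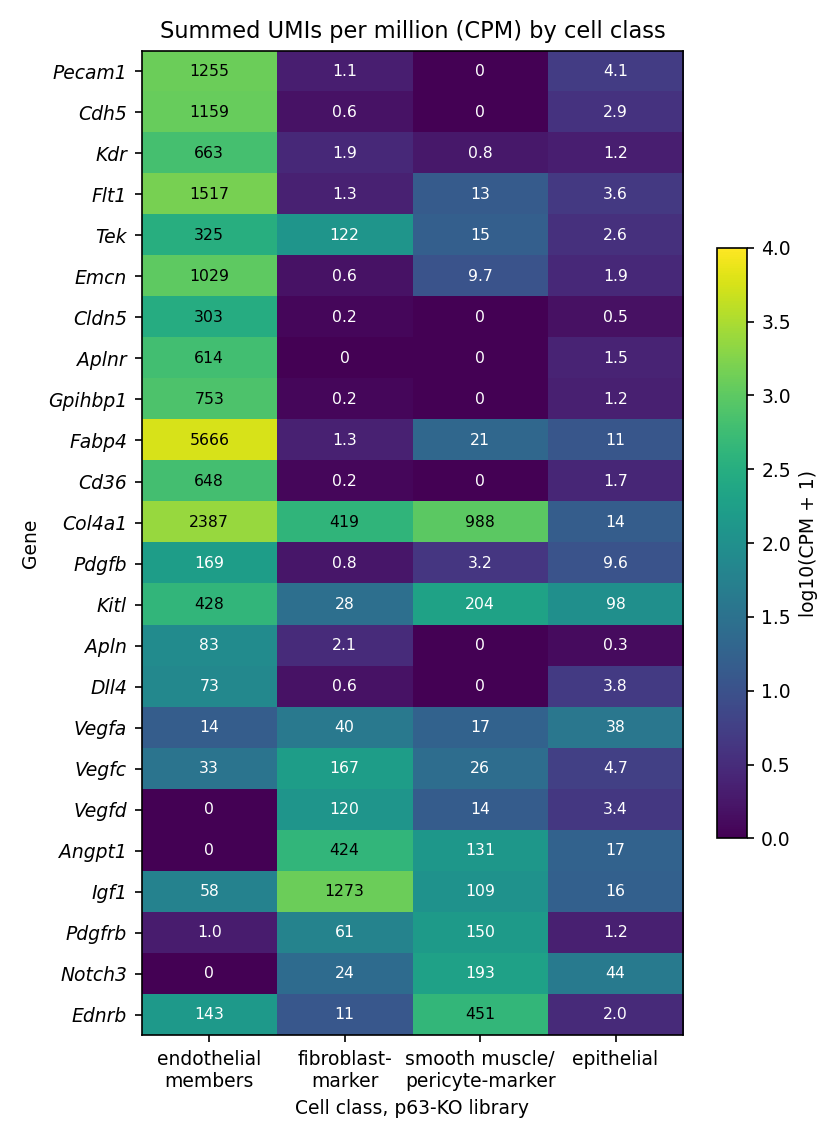
Each cell of the map gives the summed UMIs per 1000000 (CPM) of a gene in 1 of 4 classes of p63-KO cells, with colour on a log10(CPM + 1) scale. Pecam1, Cdh5 and Kdr were used to choose the members. Endothelial receptors and lipid genes fill the first column (Fabp4 at 5666), while Vegfc, Vegfd, Angpt1 and Igf1 are highest in the fibroblast-marker column and Pdgfrb, Ednrb and Notch3 in the smooth muscle and pericyte-marker column, which Notch3 helped to define.

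Junction and caveola genes were next. Of 15 measured junction genes 11 were higher and 1 lower: Cldn5, the main tight junction claudin of vessels, was at 303 CPM against 2 UMIs, F11r at 207 against 6.08 CPM, and the scaffold Magi1 at 1995 against 101 CPM. Cgnl1 was lower at 9.01 against 51.5 CPM. Only 6 of 17 junction genes lay at least 2-fold above each of the fibroblast-marker, smooth muscle and pericyte-marker and epithelial classes. After thinning, F11r was found in 39.0% of members and 21.6% of epithelial cells, and Magi1 in 89.8% and 48.2%. Of 11 caveola and transcytosis genes 7 were higher and 0 lower, among them Cav1 at 1622 against 252 CPM, Cavin2 at 678 against 100.1 CPM, and Plvap, the diaphragm protein of fenestrae and caveolae, 291-fold higher (146 to 680) at 329 CPM. Cav1 had UMIs in all 63 members, from 5.61 through 15.4 to 42.8 CP10K. Mfsd2a, which marks barrier endothelium and opposes transcytosis, had 0 UMIs in the members. In the list of Wnt and barrier genes 5 of 12 were higher and 3 lower: Tspan12 and Lrp5, part of the Norrin receptor complex, at 144 against 8.06 and 99.1 against 18.9 CPM, while the Wnt targets Apcdd1 and Nkd1 had 0 and 1 UMI. Only 2 of 13 lay at least 2-fold above each of those 3 classes. After thinning, Tspan12 was found in 32.2% of members and 12.5% of epithelial cells, and Lrp5 in 23.7% and 9.01%.

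G-protein and small GTPase genes were higher in 18 of 22 measured cases and lower in 0, and the same number, 18 of 22, lay at least 2-fold above each of the other 3 classes. Adgrf5 was at 568 against 4.95 CPM, Rapgef5 at 797 against 7.07 CPM, and Rasip1, needed for vessels to open a lumen, at 203 CPM against 3 UMIs. Gng11 had UMIs in all 63 members and was 9.89-fold higher (9.02 to 10.8).

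In clotting and vessel tone, 12 of 19 were higher and 5 lower. Npr1, a natriuretic peptide receptor, was at 106 against 2.54 CPM, Nos3 (endothelial nitric oxide synthase) at 57.1 against 0.99 CPM, and Ramp2, a subunit of the adrenomedullin receptor, at 750 against 107 CPM. Gucy1a1 and Ptgis, the nitric oxide sensor subunit and prostacyclin synthase, had 0 UMIs against 73.8 and 37.5 CPM. Ednrb was at 143 CPM in the members, 11.3 in fibroblast-marker cells and 451 in smooth muscle and pericyte-marker cells. Leukocyte adhesion genes were mixed, 4 of 10 higher and 3 lower: Icam2 was at 181 CPM against 1 UMI and Podxl at 103 CPM against 3, Icam1 differed little at 159 against 136 CPM, and Vcam1 had 1 UMI against 718.

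The basement membrane list held 13 of 24 genes higher and 3 lower. The type IV collagen chains Col4a1 and Col4a2 were at 2387 against 493 and 1392 against 295 CPM, 4.85-fold (4.60 to 5.11) and 4.72-fold (4.41 to 5.05). Col15a1 was 16.5-fold higher (14.2 to 19.1), Hspg2 (perlecan) 6.16-fold (5.52 to 6.86), and Itga6, a laminin receptor subunit, 31.4-fold (26.5 to 37.5). Mgp, Fn1 and Itgb3 were lower, at 25 against 1176, 50.1 against 969 and 0 against 24.0 CPM. Of the BMP and TGF-beta genes 8 of 19 were higher, among them the co-receptor Eng at 428 against 18.2 CPM and the BMP target Id3 at 612 against 215 CPM, and 5 were lower, among them Bmper at 0 against 47.4 CPM and Ltbp4 at 13.0 against 434 CPM.

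Antigen presentation and interferon genes were higher in 12 of 15 cases and lower in 0, and the median log2 ratio was 2.0 (2.22 at the floor). Bst2 was 12.8-fold higher (10.8 to 15.2) at 395 CPM, Isg15 43.1-fold (22.6 to 90.5) at 67.1 CPM and Ifitm3 3.51-fold (3.19 to 3.85) at 672 CPM. Bst2 had a UMI in 52.5% of thinned members against 3.50% of fibroblast-marker cells. Hypoxia and glycolysis genes were mixed, 6 of 14 higher and 3 lower: Epas1, which encodes a hypoxia-inducible factor prominent in endothelium, was at 203 against 8.06 CPM, and Hk2 at 0 against 57.1 CPM.

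Of 19 measured immediate-early and heat shock genes, 8 were lower by the 2-fold limit, 0 were higher and 11 passed neither. Their median log2 ratio was -0.88. Fos was at 530 against 1351 CPM, Fosb at 142 against 629 and Jund at 582 against 1297 CPM. Thinned to 2000 UMIs, a Fos UMI was found in 47.5% of members, 78.6% of fibroblast-marker cells, 69.2% of smooth muscle and pericyte-marker cells and 89.5% of epithelial cells. Hspb1 was lower against the whole comparison set, at 37.0 against 154 CPM, but higher against the fibroblast-marker cells alone, with a log2 ratio of 1.46. Of the Hox genes 6 were measured, 1 higher and 4 lower; Hoxb3 was at 15.0 against 78.0 CPM, and Hoxd8, the higher one, rested on 20 UMIs and was not counted as higher in several alternatives.

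Most mitosis genes, but a minority of S phase genes, were higher than in the comparison set, which is mostly fibroblast-marker cells. By the 2-fold criterion, 14 of 18 mitosis genes were higher and none lower (median log2 ratio 1.16, or 1.20 at the floor), as were 4 of 16 S phase genes. Birc5 was 3.14-fold higher (2.57 to 3.81) and Cdk1 2.85-fold (2.36 to 3.42). Against the smooth muscle and pericyte-marker cells alone, 0 mitosis genes and 1 S phase gene were higher: Mki67 was at 198 CPM in the members, 194 in that class, 53.2 in fibroblast-marker cells and 43.4 in epithelial cells. UMIs of at least 2 of 7 cycling genes were found in 44.4% of members (28 of 63, 31.9 to 57.5). At 2000 UMIs a cell the share was 28.8% (17.8 to 42.1), against 24.6% (14.8 to 36.9) of smooth muscle and pericyte-marker cells, 4.60% (2.87 to 6.94) of fibroblast-marker cells and 8.61% (7.34 to 10.0) of epithelial cells. The members and the smooth muscle and pericyte-marker cells overlap in this share, and both lie above the other 2 classes.

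The members were not alike. Among 59 members thinned to 2000 UMIs, the genes with the highest ratio of variance to mean were Fabp4 (7.29), Malat1 (5.31), Hmgb2 (4.04), Entpd1 (3.74) and Tmsb4x (3.57). Entpd1 encodes CD39, an enzyme that breaks down extracellular ATP, and ran from 0 through 1.47 to 32.5 CP10K. Hmgb2, a chromatin protein high in dividing cells, ran from 0 through 1.85 to 36.5 CP10K. By vessel type, the members' summed RNA held 7 of 9 measured arterial genes higher and 2 lower, 5 of 8 venous genes higher and 2 lower, 8 of 11 tip cell genes higher and 1 lower, and 6 of 13 lymphatic genes higher and 7 lower. At least 2-fold above each of the other classes were 5 of 9 arterial, 4 of 9 venous, 5 of 12 tip cell and 5 of 12 lymphatic genes. Efnb2 was at 192 against 14.7 CPM, Ephb4, its venous receptor, at 101 against 28.6 CPM, and Kcne3, a tip cell gene, at 40.0 against 1.27 CPM. Kcne3 was more common in the epithelial cells: after thinning it was found in 1.69% of members and 16.1% of epithelial cells. Among the lymphatic genes, Prox1 was higher at 36.0 against 2.54 CPM and Lyve1 lower at 4.0 against 26.7 CPM. Prox1 was found in 11.9% of thinned members and also in 7.41% of thinned epithelial cells. After thinning, Lyve1 was found in 1.69% of members, 0.219% of fibroblast-marker cells and 3.08% of smooth muscle and pericyte-marker cells. Immune markers had 3837 UMIs in the comparison set, but 346 in its fibroblast-marker and 7 in its smooth muscle and pericyte-marker cells. Which comparison cells held the Lyve1 UMIs was not tested. The arterial and lymphatic marker rules depended on depth. UMIs of at least 3 of 9 arterial genes were found in 21 members at full depth and in 3 of 59 after thinning, and a lymphatic pattern (Prox1 with at least 2 of 6 further genes) in 6 at full depth and 0 of 59 after thinning, with an exact upper limit of 6.06%. The lymphatic genes Ccl21a and Reln had 0 UMIs in the members and Pdpn had 1, and 4 of those 6 also carried venous genes, so no member is called lymphatic here.

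A pair of smaller patterns was chosen after the values were seen. At least 3 of Gja4, Hey1, Unc5b and Cxcl12, called the arterial pattern, were found in 3 members, and at least 2 of Selp, Vwf, Lrg1 and Edn1, called the venous pattern, in 10 members (15.9%, 7.88 to 27.3; 4 of 59 after thinning). The other 50 members had neither. Their median depths were 11585, 16373.5 and 11018.5 UMIs. Not all pattern genes were particular to the members. After thinning, Vwf was found in 8.47% of members and 9.01% of epithelial cells, and Unc5b in 5.08% and 5.99%. Gja4, Hey1, Selp and Cxcl12 were rarer in epithelial cells, at 0.057%, 0.228%, 0% and 0.741%, against 5.08%, 8.47%, 10.2% and 3.39% of members. The genes that define a pattern are no finding between the patterns, and the differences below are a description with no test.

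Several lipid genes were lower in the venous-pattern cells than in the other members. Fabp4 ran from 0 through a median of 1.73 to 48.8 CP10K in them, from 0 through 74.8 to 155 in the other members, and from 15.5 through 53.2 to 73.0 in the arterial-pattern cells. As sums, the venous-pattern cells had 944 CPM against 6852 in the other members, 7.26-fold lower (6.25 to 8.47). Fabp5 was 4.09-fold lower (2.92 to 5.90), Cd36 2.84-fold (2.12 to 3.89), Gpihbp1 2.53-fold (1.96 to 3.33) and Kdr 2.16-fold (1.66 to 2.86). Gpihbp1 still had UMIs in all 10 venous-pattern cells and Cd36 in 8. Rgcc was at 480 against 681 CPM, and Scarb1 had a higher median in the venous-pattern cells, 5.13 against 3.01 CP10K. Aplnr did not follow: it was at 628 and 631 CPM, a ratio of 0.995 (0.807 to 1.22), and Cdh5 was at 1129 and 1160 CPM.

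Higher in the venous-pattern cells was Nr2f2, which encodes the venous identity factor COUP-TFII, at 533 against 186 CPM, 2.87-fold (2.20 to 3.72). Its values ran from 2.36 through 5.44 to 11.2 CP10K in the venous-pattern cells and from 0 through 1.12 to 6.87 in the other members, so the ranges overlap. Ephb4, the venous receptor of Efnb2, did not follow: it was at 116 against 91.7 CPM, a ratio of 1.27 (0.746 to 2.07). Nrp2 was 1.38-fold higher (1.12 to 1.68). Icam1 was 3.78-fold higher (2.73 to 5.23), Entpd1 3.59-fold (2.84 to 4.54), Egr1 3.48-fold (2.89 to 4.19), Fos 3.31-fold (2.77 to 3.96) and Aqp1 2.64-fold (2.22 to 3.13). Among the largest ratios were Pcdh7 at 385 against 6.55 CPM, Eln (elastin) at 222 against 11.8 CPM, Fbln5 at 211 against 14.4 CPM and Il6st, a receptor subunit shared by several cytokines, at 723 against 81.2 CPM. This ranking took genes with at least 200 CPM and UMIs in at least 60% of the venous-pattern cells, so high values there chose them. Mmrn1 was 20.1-fold higher (6.75 to 81.0) on 20 UMIs, and Prox1 4.03-fold (1.98 to 8.21) on 18.

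UMIs of the division genes Top2a and Mki67 lay mostly outside the venous pattern. Top2a had 2 UMIs in the venous-pattern cells and 255 in the other members, a ratio of 31.7 (8.67 to 263), and Mki67 3 and 195, a ratio of 16.1 (5.44 to 78.9). At least 2 of the 7 cycling genes were found in 24 of 50 other members (48.0%, 33.7 to 62.6) and in 3 of 10 venous-pattern cells (30.0%, 6.67 to 65.2), and these intervals overlap. Apln had 3 UMIs in the venous-pattern cells and 80 in the other members, a ratio of 6.62 (2.19 to 32.8).

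The 3 arterial-pattern cells had 45560 UMIs together. Cxcl12, which helped to choose these cells and is no finding, was at 4.01, 6.91 and 11.1 CP10K in them and had 0 UMIs in the other 60 members. Sox17, which acts in arterial cells, was at 2.81, 4.32 and 11.1 CP10K against a median of 0.50 in the 50 other members, and Efnb2, the arterial ephrin, at 3.45, 5.54 and 5.61 against a median of 1.55. The highest of the other members reached 5.63 and 11.6, so the ranges overlap for both. Dll4, also among the genes of the arterial rule, differed little, at 87.8 CPM on 4 UMIs against 79.9 CPM. Ephb4, the venous receptor, was at 198 CPM on 9 UMIs against 91.7 CPM in the other members. Slc6a6, a taurine transporter, was 11.8-fold above the other members (8.33 to 16.5), Rgs2 6.35-fold (3.84 to 10.2) and Tgfb2 8.38-fold (3.67 to 18.0). They rest on 61, 25 and 11 UMIs pooled from the 3 cells. These genes were ranked among those with at least 200 CPM and UMIs in all 3 cells, so their high values chose them. Tek had UMIs in 1 of the 3 cells, and Aqp1 was at 87.8 against 452 CPM in the other members. Bmx, Gja5 and Cxcr4, further arterial genes, had 0 UMIs in all members. One of the 3 was the member that held most of the haemoglobin UMIs.

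**Figure D4:**
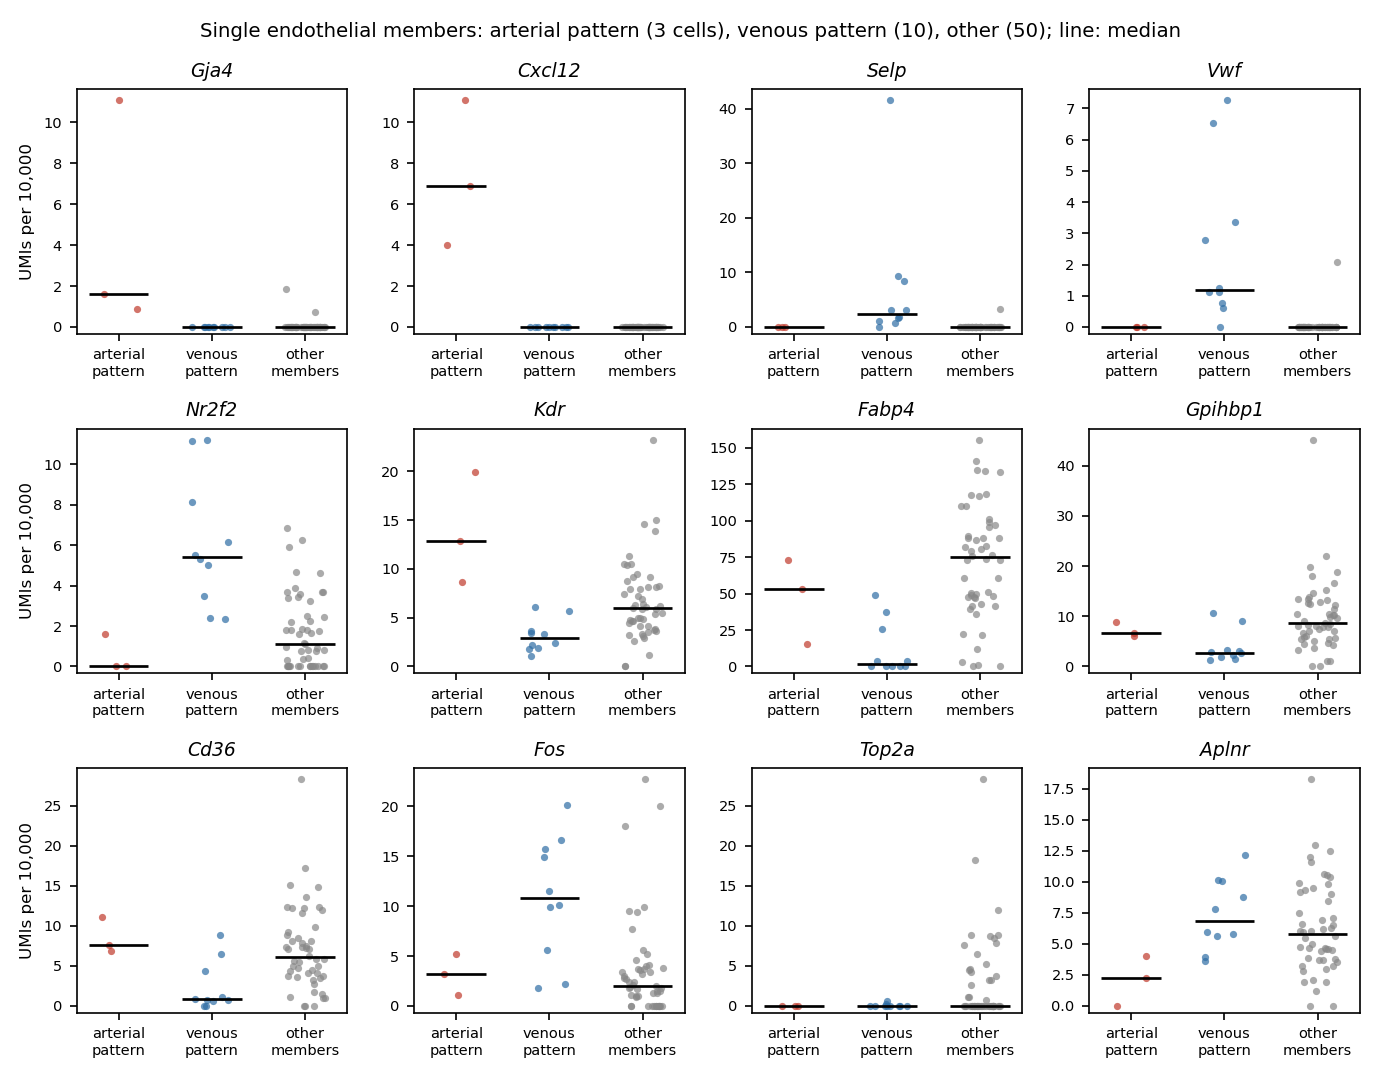
Each point is 1 member, in UMIs per 10000 of the cell, for the 3 arterial-pattern, 10 venous-pattern and 50 other members, and the black line is the median. Gja4, Cxcl12, Selp and Vwf define the patterns; Fabp4 has a median of 1.73 in the venous-pattern cells and 74.8 in the other members, while Aplnr overlaps between those 2 sets.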

How the data were processed

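Per the labels' protocols, libraries were made with a 10x Genomics 3' kit. Per the submitters' processing notes, the authors used Cell Ranger 7.1.0 and build mm10. The sources used here do not give the annotation release, cell calling or intron counting. Deposited by the authors were raw UMI counts for 32285 genes, with no sign of normalization. The p63-KO library held 2821 barcodes with 86504624 UMIs and the wild-type library 6034 with 76472445.

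The members, gene lists and alternatives were chosen with earlier results of these data known. UMIs were summed over each set of cells and scaled to CPM (per 1000000). A gene was measured from 20 CPM in either set. The log2 ratio used CPM with 1 added, which understates changes of low genes, and folds used CPM without it. A count of 0 was set to 3 UMIs over the set for bounds. Intervals are exact 95% Poisson for CPM, conditional binomial for folds and Clopper-Pearson for shares. Cells are not replicates, so no test was run. Doublets were scored but kept. Fibroblast-marker cells had Dcn, Lum, Mfap4 and Pdgfra of at least 4 CP10K together, above Rgs5, Notch3, Cspg4 and Myh11. Smooth muscle and pericyte-marker cells had the latter sum of at least 4 and no lower than the former.

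Named were the rule genes and Trp63; the 20 highest and 10 lowest log2 ratios among genes with at least 100 CPM and a UMI in at least 25% of the cells of the higher set; from each list up to 4 of the largest ratios, up to 2 opposite ones, and genes from 500 CPM; and the 10 most variable genes. A value that this rule takes is not reported here. Other genes were chosen after their values were seen. Scripts ran in Python 3.11.15 (numpy 2.4.6, scipy 1.17.1, pandas 2.3.3, scikit-learn 1.9.0) and were tested on simulated data.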

Additional observations from a re-analysis of the deposited data

How the results depend on the processing

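Over 19 alternatives, 504 of 530 counts lay within 1.5 times the reported one, and of 2916 log2 ratios of the 162 called named genes 2254 stayed inside the 95% counting interval of the reported ratio, 656 moved outside it with the same sign and 6 changed sign. The rule gave 58 to 69 members. Measured from 100 CPM, 566 genes were higher and 494 lower, with 3 Notch, 4 arterial, 4 tip cell, 0 lymphatic, 5 clotting and vessel tone, 5 secreted ligand, 3 Wnt and barrier, 0 S phase, 8 mitosis, 5 MHC and interferon, 3 hypoxia and 0 Hox genes higher, and 373 genes above each other class, since fewer genes were tested. Measured from 5 CPM, 2689 genes were lower and 6 Hox genes higher. The Hox count was 0 with a marker sum of at least 2, with every cell weighing equally, without the haemoglobin-rich member and with 1 Epcam or Cdh1 UMI allowed; the last 2 settings were chosen after seeing the data. Against fibroblast-marker cells 1 immediate-early or heat shock gene was higher, and the log2 ratio of Hspb1 was 1.46. Against smooth muscle and pericyte-marker cells 1 S phase and 0 mitosis genes were higher, and the log2 ratios of Stmn2, Cxcl12, Vegfc, Ctsh and Fbln5 were 2.0, 0.90, 0.34, 0.52 and 1.53. After thinning, the lymphatic rule held 0 members and the arterial rule 3. The causes of the other changes were not tested. A comparison of cells with Y-linked RNA alone was not run, because 0 members had it. No paired analysis was possible because each group is 1 library. Depth limits the sparse genes most: the members hold 998920 UMIs, so 20 CPM is about 20 UMIs.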
